A study of Lithobates pipiens with 72 samples.

Results

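The lowest of the 3 TNT doses sequenced in this study, 1.5 mg/L, was compared with its own control. Both groups were taken from the sample labels and held 4 libraries each, 8 of the 72 libraries of the series. TNT (2,4,6-trinitrotoluene) is a nitroaromatic explosive. Leopard frog (Rana pipiens, also Lithobates pipiens) tadpoles from purchased eggs, 7 to 10 d old at the start, were kept for 96 h in beakers of dechlorinated tap water without TNT (control) or with TNT at a target of 1.5 mg/L. The TNT had been laid as a film on glass from acetone, which evaporated before water was added; the labels name no acetone control. Each library (A to D in each group) was made from RNA of 5 whole tadpoles of 1 beaker, so beakers are the replicates and all tissues were mixed. The higher TNT groups, 2.3 and 3.4 mg/L, had 4 libraries each and the same control, and were used to ask which changes were already complete at 1.5 mg/L. All doses are target values in the labels.

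Nitroaromatic compounds are reduced inside cells by flavin enzymes, and the radicals formed can pass electrons to oxygen or go on to amines. Animals answer such electrophilic and oxidative stress chiefly through the transcription factor NRF2, which the KEAP1 protein holds down until it is modified and which then, with small Maf partners, raises genes for glutathione supply, NADPH supply, quinone reduction, iron storage and drug conjugation. Red blood cells and liver are the classical targets of TNT in mammals. Frog tadpoles also carry a working innate immune system, with complement made in liver and secreted lectins at body surfaces, and their red cells make larval globins before the switch to adult globins at metamorphosis.

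The values were estimated counts per transcript, each transcript being named in the deposited table by its closest Xenopus protein. Numbers beginning with T below are the transcript numbers of that table. Library totals ran from 1.67 to 10.9 M counts in the control and from 4.29 to 14 M at 1.5 mg/L, with the A library the shallowest of each group. Levels are given in CPM, the count divided by the TMM-scaled library total and set to a common total (counts per M); they are not corrected for transcript length and are compared only within a transcript. A change is a log2 fold change against the control ± its standard error with 4 libraries a group, and adjusted p comes from the quasi-likelihood test of edgeR, adjusted by the Benjamini-Hochberg method over 12648 transcripts. The control libraries were sequenced in lane 4 apart from C in lane 3, and of the exposed libraries A and C were in lane 4 and B and D in lane 5. Because the tissue was a whole body, more cells of a type and more RNA per cell cannot be told apart in any change below.

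At 1.5 mg/L, 349 of 12648 transcripts (2.76%) passed an adjusted p of 0.05 in edgeR, of which 222 rose (1.76% of those tested) and 127 fell (1% of those tested). Of these, 189 carried an informative protein name, 118 of them higher and 71 lower. Most changes were modest in size: the median was 0.70 on the log2 scale, and 122 transcripts changed at least 2-fold, 85 upward and 37 downward. In 339 of the 349 all 4 exposed libraries lay outside the range of the 4 controls, as did 1154 of all 12648 transcripts (9.12%). An unadjusted p under 0.05 was reached by 1654 transcripts (13.1%). Under the DESeq2 Wald test 732 transcripts passed, 376 up and 356 down, a share of 51.4% rises against 63.6% in edgeR. Within lane 4, whose 3 controls and 2 exposed libraries are part of the 8 that chose the 349, the median change of the 349 was 0.75 and 13 transcripts passed; the part of the lane in the changes was not tested on other libraries.

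**Figure D1:**
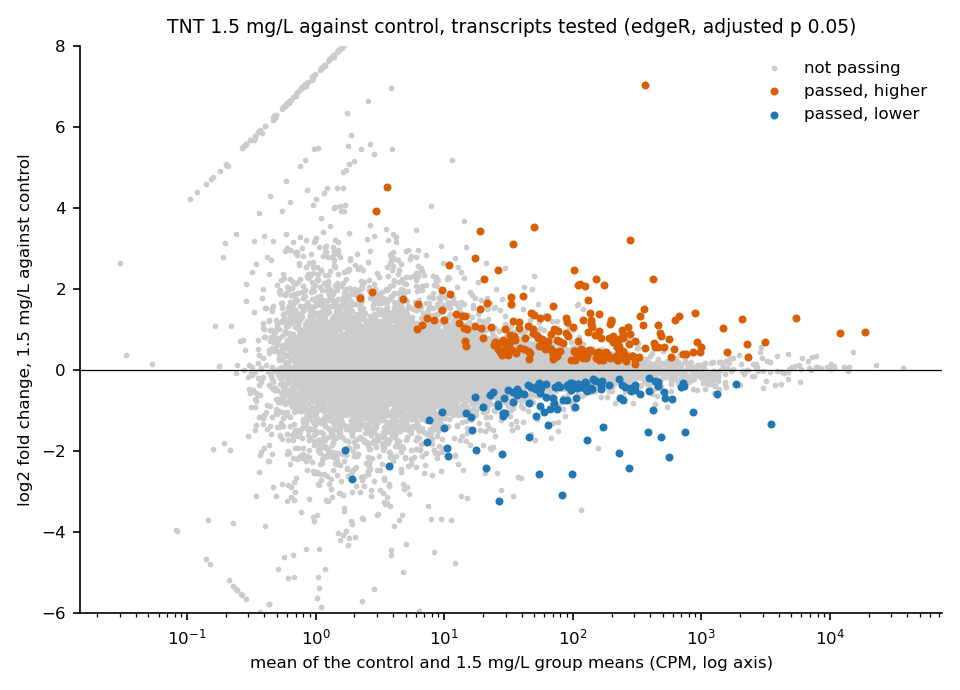
The log2 fold change of each transcript at 1.5 mg/L against control (vertical axis) is drawn against the mean of the control and exposed group means in CPM (horizontal, log axis); orange points rose and blue points fell at an adjusted p of 0.05, and grey points did not pass. The 222 rises and 127 falls lie mostly within 2 log2 units of 0, with a cytochrome P450 alone at 7.02; transcripts that passed with 3 counts or fewer in a group are not drawn, nor are values beyond the axis.

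The transcript with the smallest adjusted p was apoptosis-inducing factor 2-like (T256988). Its mammalian relative AIFM2 is a membrane-bound oxidoreductase that regenerates reduced ubiquinone and protects lipids from peroxidation. It stood at 50.5, 55.1, 60.2 and 50.7 CPM in control libraries A to D and at 618, 537, 458 and 386 CPM at 1.5 mg/L. The lowest exposed library was thus more than 6 times the highest control. The change was 3.20 ± 0.13 (adjusted p = 7.05e-09 in edgeR), and 3.36 within lane 4. A weaker transcript with nearly the same name, apoptosis-inducing factor 2 (T256992), was at 0 CPM in control A, B and C and at 1.01 CPM in D, against 9.45, 11.6, 3.99 and 2.91 CPM in the exposed libraries. Its change of 4.51 ± 1.01 passed (adjusted p = 0.0256 in edgeR) but lost that call when any of control A, B or C or exposed A or B was left out, with values of 3.99 to 4.35. Without control D, the only control with counts, the fitted value was 9.09, which is no bound.

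The largest change above the count floor was in a transcript named only cytochrome P450 (T354027), a haem monooxygenase whose family the name does not give. Control levels were 5.22, 4.89, 6.18 and 5.95 CPM, and the exposed libraries held 342, 659, 738 and 1177 CPM. The groups were far apart, while the exposed libraries themselves differed more than 3-fold, with A the lowest and D the highest. Its change was 7.02 ± 0.62 (adjusted p = 3.31e-05 in edgeR). Multidrug resistance protein 1-like (T407435), an ATP-driven pump for foreign and bile-borne compounds, went from 46.4, 37.5, 54.9 and 32.7 CPM to 224, 167, 195 and 150 CPM without overlap (2.11 ± 0.20, adjusted p = 6.42e-05 in edgeR). Lysosomal acid lipase (T467101), which frees cholesterol and fatty acids from lipids taken into lysosomes, was between 1.57 and 6.92 CPM in controls and between 24.9 and 37.5 CPM in exposed libraries (2.77 ± 0.45, adjusted p = 0.00302 in edgeR).

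Among the 17 gene lists, that of the NRF2 and antioxidant response had the largest number of rises. Of 30 genes sought for this list, 19 were found by name and 14 had enough counts to be tested. Of these 14 measured members 7 rose (50%, beside 1.76% of all tested), the AIFM2-like transcript among them, and none fell. This list, like the others below, was chosen with earlier results of these data known. Its share of rises can follow in part from that choice and is a description. The list took 1 transcript per gene. A weakly expressed catalase-like transcript that fell (T478581, given below) was not counted in it, nor was the weaker apoptosis-inducing factor 2 (T256992) that rose. The group's median change was 0.87, beside 0.04 over all transcripts tested. Kelch-like ECH-associated protein 1 (KEAP1, the repressor) was at 45.8, 64.8, 118 and 99.3 CPM in controls and at 219, 187, 190 and 185 CPM at 1.5 mg/L, so the exposed libraries were close together and all above controls that spread widely (1.23 ± 0.22, adjusted p = 0.00697 in edgeR). Transcription factor MafG, a DNA-binding partner of NRF2, went from 1.74 to 2.58 CPM in controls to 5.20 to 9.11 CPM (1.76 ± 0.26, adjusted p = 0.00125 in edgeR). NRF2's own transcript was low, with means of 1.01 and 3.38 CPM, and did not pass (adjusted p = 0.566 in edgeR).

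Among the targets of that pathway, the cystine/glutamate transporter, which brings in cystine for glutathione synthesis, stood at 2.90, 3.69, 4.12 and 4.49 CPM in controls and at 19.1, 16.5, 16.0 and 10.2 CPM in exposed libraries. Each exposed value was more than 2 times the highest control, and the change was 1.98 ± 0.23 (adjusted p = 2e-04 in edgeR). Fth1, the heavy chain of ferritin that oxidises and stores iron, was the most abundant of the transcripts that rose, from 12663, 12469, 13410 and 12416 CPM to 23161, 26039, 27820 and 21348 CPM. It took up between 1.24 and 1.3% of all counts in the controls and between 1.99 and 2.61% at 1.5 mg/L. Its change was 0.95 ± 0.07 (adjusted p = 1.09e-05 in edgeR). Aldose reductase-like, which reduces reactive aldehydes, rose by 0.69 ± 0.07 (adjusted p = 0.000143 in edgeR). Carbonyl reductase [NADPH] 1-like, which reduces quinones and carbonyls, went from 14.9 to 62.3 CPM in controls to 135 to 254 CPM (2.11 ± 0.44, adjusted p = 0.0175 in edgeR). The call on carbonyl reductase was lost without control D (2.08) or exposed C (1.87).

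Pirin (T347903), an iron-binding nuclear protein, and nmrA-like family domain-containing protein 1 (T325871), whose human relative senses NADPH, rose with them although neither was in the list. Pirin went from 154, 179, 230 and 185 CPM to 697, 562, 517 and 354 CPM (1.51 ± 0.20, adjusted p = 0.000757 in edgeR). The nmrA-like transcript went from 42.4, 62.6, 77.1 and 59.7 CPM to 228, 205, 224 and 154 CPM (1.73 ± 0.18, adjusted p = 9.8e-05 in edgeR). In both, exposed library D was the lowest of the 4, as it was for the AIFM2-like transcript, the cystine/glutamate transporter and the efflux pump; for the cytochrome P450 it was the highest. Prostaglandin reductase 1 (T253128), which reduces reactive enones, had tight groups, 112 to 132 CPM in controls and 249 to 288 CPM when exposed (1.13 ± 0.07, adjusted p = 2.03e-06 in edgeR).

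Drug-metabolising enzymes rose in part. Of 13 measured phase I enzymes 2 rose (15.4%, beside 1.76% of all tested) and none fell (median 0.21). Cytochrome P450 3A29-like, of the family that oxidises most drugs in mammals, stood at 381, 335, 425 and 370 CPM in controls and at 946, 1016, 924 and 935 CPM at 1.5 mg/L, tight in both groups (1.34 ± 0.10, adjusted p = 4.87e-06 in edgeR). Cytochrome P450 4B1-like went from 199 to 240 CPM in controls to 454 to 555 CPM (1.10 ± 0.12, adjusted p = 0.000128 in edgeR). Of 10 conjugation enzymes 3 rose (30%) and none fell (median 0.33). UDP-glucuronosyltransferase 1-1-like, which in mammals clears bilirubin and drugs, rose by 1.08 ± 0.12 (adjusted p = 2e-04 in edgeR), glutathione S-transferase alpha 1 by 0.76 ± 0.13 (adjusted p = 0.00413 in edgeR) and thiopurine S-methyltransferase by 0.90 ± 0.18 (adjusted p = 0.0135 in edgeR). The call on the methyltransferase was lost without control D (0.83), exposed B (0.84) or exposed C (0.78).

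NADPH, which these reductases consume, is supplied by dehydrogenases of which 2 of 6 measured rose (33.3%, beside 1.76% of all tested) and none fell (median 0.77). Cytoplasmic isocitrate dehydrogenase went from 151, 206, 230 and 192 CPM to 359, 349, 369 and 370 CPM (0.89 ± 0.10, adjusted p = 0.000188 in edgeR). NADP-dependent malic enzyme rose by 0.64 ± 0.08 (adjusted p = 0.000406 in edgeR). Of 4 measured genes of iron and haem handling 2 rose (median 0.41): Fth1, counted above, and cytoplasmic aconitate hydratase, which doubles as an iron-sensing RNA-binding protein (0.57 ± 0.12, adjusted p = 0.0158 in edgeR). That call on aconitate hydratase was lost without control A (0.51), B (0.57) or D (0.56) or exposed B (0.57) or D (0.52).

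Protein quality control had only begun to move. Of 6 chaperones 1 rose (16.7%, beside 1.76% of all tested). It was hsp70, the chaperone induced by damaged protein, which went from 7.54, 6.92, 4.23 and 9.88 CPM to 44.6, 54.7, 17.3 and 18.7 CPM (2.25 ± 0.44, adjusted p = 0.0116 in edgeR). The exposed libraries fell into a high pair, A and B, and a low pair, C and D, all above the controls. Of 13 measured proteasome genes 3 rose (23.1%), each by less than 1.5-fold, and none fell (median 0.12). Proteasome subunit beta type-5-like, a catalytic subunit, rose by 0.48 ± 0.09 (adjusted p = 0.00749 in edgeR) and subunit alpha type 1, of the core ring, by 0.26 ± 0.04 (adjusted p = 0.00354 in edgeR). The third, 26S non-ATPase subunit 6 of the regulatory cap, rose by 0.27 ± 0.06 (adjusted p = 0.0237 in edgeR), a call lost without control B (0.23) or C (0.24) or exposed A (0.24), B (0.25) or C (0.27).

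All 3 measured genes of cholesterol synthesis rose (100%, beside 1.76% of all tested), with a median of 1.51. Of 19 genes sought for this list, 8 were found by name and only these 3 had enough counts to be tested. Squalene monooxygenase-like, a rate-controlling step of the pathway, stood at 19.7, 13.9, 18.9 and 12.8 CPM in controls and at 55.3, 51.2, 31.7 and 60.04 CPM at 1.5 mg/L (1.62 ± 0.24, adjusted p = 0.00126 in edgeR). Diphosphomevalonate decarboxylase-like rose by 1.36 ± 0.19 (adjusted p = 0.00101 in edgeR). Squalene synthase-like, whose controls ran from 7.18 to 15.7 CPM, rose by 1.51 ± 0.33 (adjusted p = 0.0221 in edgeR), a call lost without control B (1.52), C (1.38) or D (1.37) or exposed A (1.32) or D (1.50). Cytochrome P450 family 8 subfamily B member 1, the sterol hydroxylase that sets the kind of bile acid made in mammals, went from 33.7, 43.7, 31.0 and 36.5 CPM to 95.6, 91.3, 78.2 and 96.0 CPM (1.31 ± 0.13, adjusted p = 6.59e-05 in edgeR). Bile salt export pump-like, which moves bile salts out of liver cells, went from 65.6, 63.9, 108 and 62.3 CPM to 153, 188, 199 and 255 CPM (1.40 ± 0.27, adjusted p = 0.00935 in edgeR). The summed level of 4 measured liver markers, which fibrinogen beta dominates, was 1989 to 2879 CPM in controls. It was 2962 to 3453 CPM when exposed, without overlap. Fibrinogen beta was the only 1 of the 4 called and the only 1 with a positive change, and the median of the 4 was -0.35. The part of liver amount in these rises was not tested.

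Globin transcripts were higher in all exposed libraries. Haemoglobin subunit alpha-3 stood at 1658, 3376, 4207 and 3334 CPM in controls and at 7915, 6570, 7071 and 9186 CPM at 1.5 mg/L, with control A, the shallowest library, the lowest (1.29 ± 0.27, adjusted p = 0.0154 in edgeR). That call was lost without exposed D (1.18). Haemoglobin subunit beta-2-like went from 29.6, 78.6, 108 and 47.0 CPM to 206, 248, 409 and 277 CPM (2.08 ± 0.36, adjusted p = 0.00413 in edgeR). An adult alpha globin had 2 counts over the 4 controls, both in library B, and 336 over the 4 exposed libraries, which is 122 times as much after scaling for depth, with a counting interval (95%) of 33.55 to 1013. Globin genes are near-identical copies that can share reads, so single values are uncertain. The summed level of 3 measured red-cell markers, which the globins dominate, was 1688 to 4344 CPM in controls and 6818 to 9475 CPM when exposed; the share of red cells in the pools was not tested.

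Complement factor B, the protease of the alternative complement pathway, stood at 214, 119, 104.78 and 155 CPM in controls and at 13.5, 20.9, 22.7 and 12.6 CPM at 1.5 mg/L, so that the lowest control was more than 4 times the highest exposed library (-3.08 ± 0.40, adjusted p = 0.000579 in edgeR). Pulmonary surfactant-associated protein D-like, a secreted lectin that binds microbes, went from 742, 1195, 941 and 759 CPM to 158, 211, 189 and 269 CPM (-2.13 ± 0.41, adjusted p = 0.00952 in edgeR). Inducible nitric oxide synthase, which makes nitric oxide in activated phagocytes of mammals, went from 9.87, 20.8, 24.6 and 14.3 CPM to 3.54, 4.59, 3.59 and 4.28 CPM (-2.12 ± 0.30, adjusted p = 0.000949 in edgeR). In none of these did the groups overlap. Other called transcripts with surfactant protein or lectin names included rises in pulmonary surfactant-associated protein A-like (0.88), protein C (1.33) and hepatic lectin-like (0.53). Galectin-4-like fell (-0.32).

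Over the list of complement and acute-phase genes, 5 of 16 measured members fell (31.2%, beside 1% of all tested). Another 2 rose (12.5%, beside 1.76%), and the median was -0.33. Beside factor B and nitric oxide synthase, the inhibitor of NF-kappa-B alpha, itself a target of that factor, fell by 0.52 on the log2 scale (SE 0.07, adjusted p = 0.000757 in edgeR). Complement C3, the central component, fell by 0.34 (SE 0.08, adjusted p = 0.0392 in edgeR) and complement factor H-like, a brake on C3, by 0.40 (SE 0.09, adjusted p = 0.0258 in edgeR). Both rises were small: fibrinogen beta chain-like, a clotting protein made in liver, rose by 0.63 ± 0.14 (adjusted p = 0.02 in edgeR) and a mannose-binding lectin-associated serine protease by 0.41 ± 0.10 (adjusted p = 0.0345 in edgeR). These last 4 calls were the least firm. The C3 call was lost in 7 of the 8 fits that left out 1 of the compared libraries (-0.37 to -0.32, kept without control C), and the fibrinogen call in 6 (0.53 to 0.64, kept without control C or exposed D). The factor H call was lost without control A or C or exposed B, C or D (-0.41 to -0.35), and the protease call without control A, B or D or exposed B, C or D (0.34 to 0.42).

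The interferon and antigen presentation list had a single fall (12.5%, beside 1% of all tested) and no rise among 8 genes measured, with a median of -0.45. The gene was the RNA helicase DDX58, the RIG-I sensor of viral RNA, at 63.8, 82.7, 78.2 and 97.4 CPM in controls and 35.0, 37.6, 40.8 and 44.9 CPM when exposed (-1.03 ± 0.14, adjusted p = 0.000757 in edgeR). All 4 exposed libraries lay below all 4 controls. The summed level of 3 leukocyte markers was 16.1 to 40.9 CPM in controls and 10.0 to 18.7 CPM at 1.5 mg/L, ranges that overlap, and the part of leukocyte number in these falls was not tested.

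Several secreted peptides and surface proteins fell. ADM2-like, a relative of the vasodilator peptide adrenomedullin, stood at 113, 67.0, 58.6 and 130 CPM in controls and 29.0, 39.6, 38.4 and 36.4 CPM at 1.5 mg/L (-1.35 ± 0.23, adjusted p = 0.00425 in edgeR). Urotensin II related peptide, a small neuropeptide, fell by 1.48 (SE 0.20, adjusted p = 0.000757 in edgeR), from 20.2 to 29.6 CPM in controls to 6.14 to 10.4 CPM. Urotensin II itself, at 2.39 to 4.15 CPM in controls, changed by -2.69 ± 0.65 (adjusted p = 0.0393 in edgeR), a call lost in 7 of the 8 leave-outs (-2.83 to -2.45) and kept without exposed D. Transmembrane 4 L6 family member 20 went from 313, 512, 606 and 420 CPM to 54.3, 80.6, 96.7 and 112 CPM (-2.42 ± 0.30, adjusted p = 0.000354 in edgeR). Olfactomedin 4, a secreted glycoprotein of gut epithelium and neutrophils in mammals, went from 670, 1403, 1284 and 1113 CPM to 481, 287, 276 and 498 CPM (-1.54 ± 0.24, adjusted p = 0.00177 in edgeR). Summed gut-epithelium markers were 7223 to 9588 CPM in controls and 6749 to 8188 CPM when exposed, which overlap.

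A pair of skeletal muscle myosin heavy chains fell alike: myosin-4-like, at 539, 713, 517 and 520 CPM in controls, was at 159, 173, 233 and 232 CPM at 1.5 mg/L (-1.52 ± 0.21, adjusted p = 0.000892 in edgeR), and myosin heavy polypeptide 13 changed by -1.65 ± 0.25 (adjusted p = 0.00152 in edgeR). Near-identical myosin genes can share reads, so how the loss divides between them is uncertain. The summed level of 7 skeletal muscle markers, which actin dominates, was 24379 to 31343 CPM in controls and 28191 to 30402 CPM when exposed. A weakly expressed catalase-like transcript (T478581; catalase breaks down hydrogen peroxide) changed by -2.37 ± 0.51 (adjusted p = 0.0198 in edgeR) from 2.32 to 8.13 CPM in controls, a call lost without control B, C or D or exposed B, C or D (-2.47 to -2.17) and when transcripts of the same name were summed (-1.28).

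Other transcripts were counted in only 1 of the groups. Integrin alpha-5-like, a fibronectin receptor chain, was uncounted in the 4 controls and had 158 counts when exposed. Taking 3 counts over the control group as the floor, it was at least 38.3-fold higher. Phospholipid-transporting ATPase IA, a membrane flippase, had 0 and 96 counts, at least 23.3-fold higher. A transcript named O-sialoglycoprotein endopeptidase had 450 control counts and 0 in the exposed libraries (at least 206-fold lower), yet it had 8 counts at 2.3 mg/L and 285 at 3.4 mg/L. Its call was lost in 7 of the 8 leave-outs and kept without control B. Bounds and intervals cover counting error only.

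The remaining lists barely moved at 1.5 mg/L. A single fall made up 1.85% of the collagen and matrix list, 5.88% of the oxidative phosphorylation list and 12.5% of the p53 list, beside 1% of all tested. Of 17 oxidative phosphorylation genes 1 fell, Ndufa13, a subunit of respiratory complex I (-0.36 ± 0.07, adjusted p = 0.0112 in edgeR). Of 54 collagen and matrix genes 1 fell, membrane type-1 matrix metalloproteinase 14, a collagen-cutting protease (-0.39 ± 0.06, adjusted p = 0.00101 in edgeR). Of 8 p53 and DNA damage genes 1 fell, the cyclin-dependent kinase inhibitor Xic-1 (-0.49 ± 0.11, adjusted p = 0.0351 in edgeR), a call lost in 6 of the 8 leave-outs (-0.52 to -0.41, kept without control B or C). None of 24 ribosomal protein genes, 7 amino acid and endoplasmic reticulum stress genes or 6 liver-secreted proteins passed in edgeR in either direction. Medians of these 6 lists lay between -0.15 and 0.15.

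**Figure D2:**
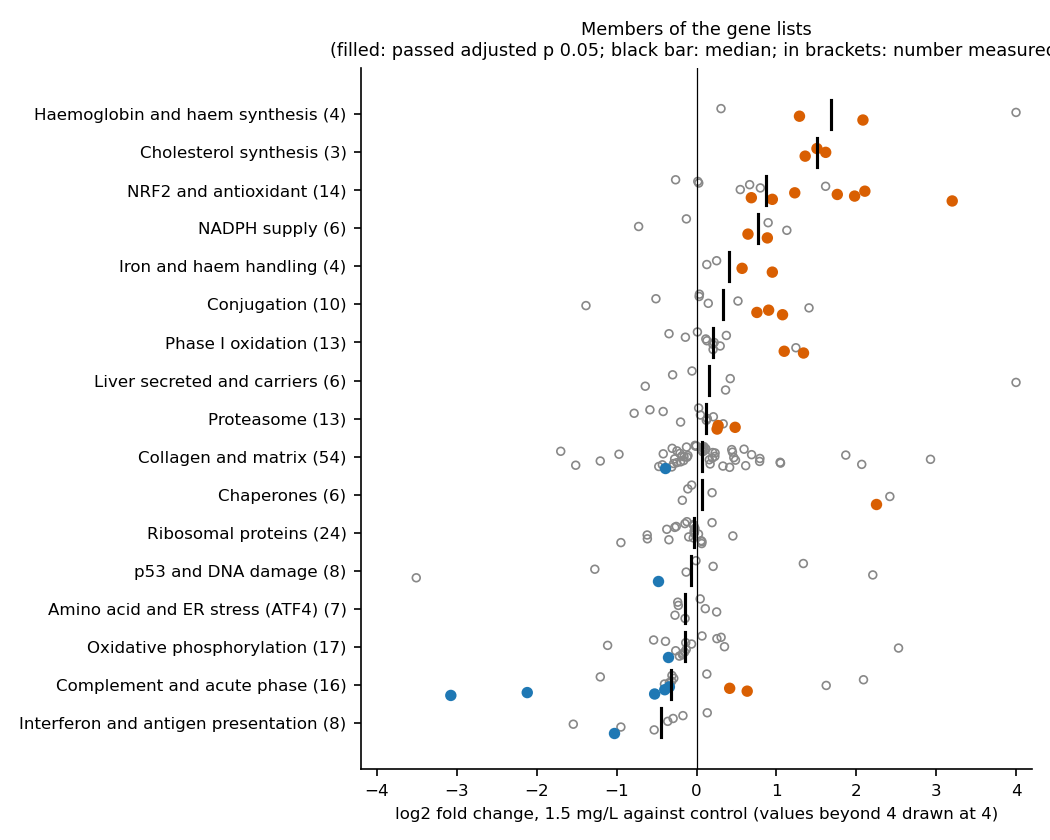
Each point is the log2 change of 1 list member at 1.5 mg/L against control (horizontal axis), with lists ordered by their median (black bar) and the number measured in brackets; filled orange points rose and filled blue points fell at an adjusted p of 0.05. The cholesterol list has all 3 members filled and the antioxidant list 7 of 14, while the collagen, ribosomal and stress lists are centred near 0 with at most 1 filled point.

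Which changes were already complete at the lowest dose was asked by testing 3.4 against 1.5 mg/L directly. Between these doses 807 of 12648 transcripts passed (6.38%), while none passed between 1.5 and 2.3 mg/L in edgeR (0%), where 880 had an unadjusted p under 0.05 (6.96%). Against the control, 682 passed at 2.3 mg/L (5.39%) and 1516 at 3.4 mg/L (12%); of the 349 called at 1.5 mg/L, 299 also passed at 2.3 mg/L and 276 at 3.4 mg/L, 3 comparisons that share the same controls. A transcript called at 1.5 mg/L is said to have grown where the step to 3.4 mg/L passed in the same direction, and to have receded where it passed in the opposite direction. It was at its full change where the step did not pass and the 95% interval allowed less than a further 1.5-fold, and the rest were undecided. Between 2.3 and 3.4 mg/L, a step that shares no library with the choice at 1.5 mg/L, 9 transcripts passed in edgeR (0.0712%) and 1377 had an unadjusted p under 0.05 (10.9%). Of the 349, 71 had such a p for a step onward and 42 for a step back, with a median step of 0.03 in the direction of the first change. Over all 12648, signed by their own estimate at 1.5 mg/L, 735 had such a p onward and 642 back, with a median step of 0.02.

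By this rule 185 of the 349 (53%) were at their full change at 1.5 mg/L, 110 of the rises and 75 of the falls. A further 81 (23.2%) grew, 34 (9.74%) receded and 49 (14%) were undecided. Over all tested transcripts, signed by their own estimate at 1.5 mg/L, the shares were 37.5, 3.36, 3.02 and 56.1%. The 1.5 mg/L libraries enter both the choice of transcripts and the step, so a high value there by chance makes a step backward more likely. The median step was -0.01 for the full group and 0.69 for those that grew. Undecided transcripts had the largest changes at 1.5 mg/L, with a median of 1.93 against 0.59 in the full group, and wide intervals. The 1.5-fold bound is 0.585 on the log2 scale, close to that 0.59. For the smaller changes, the full class therefore does not exclude a further step as large as the change itself. The rule also sets no limit on a step back. The counts moved with the libraries used, as did the number called. Without exposed B 241 were called, of which 123 were full, 52 grew and 14 receded. Without control D 260 were called, of which 122 were full and 18 receded. The step to 3.4 mg/L also crossed lanes in part. Of the 3.4 mg/L libraries A and B were in lane 3, which held no 1.5 mg/L library, C was in lane 5 and D in lane 4. With lane as a term 221 were called at 1.5 mg/L, of which 109 were full, 44 grew and 20 receded.

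**Figure D3:**
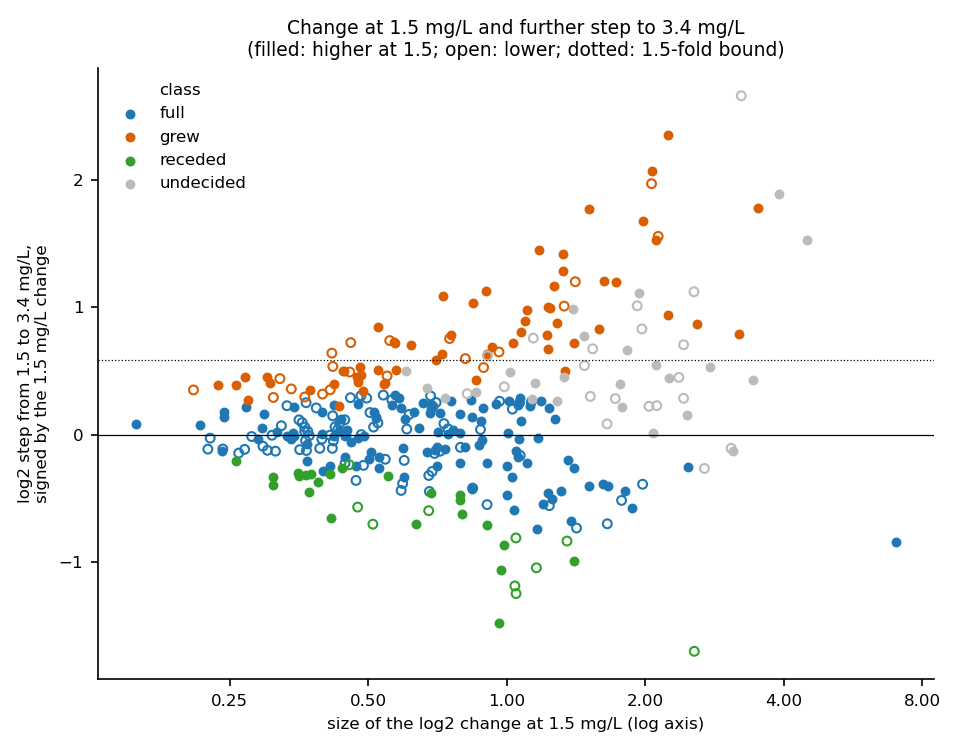
Transcripts called at 1.5 mg/L, with the size of the log2 change there on the horizontal log axis and the log2 step from 1.5 to 3.4 mg/L, signed by the direction of that change, on the vertical axis; filled points rose and open points fell at 1.5 mg/L, and the dotted line marks a further 1.5-fold. The 185 transcripts of the full class lie around or below 0, with the cytochrome P450 at the far right at -0.84, and the 81 that grew lie above 0.

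The cytochrome P450 was in the full class. Its change was 7.02 at 1.5, 6.88 at 2.3 and 6.18 at 3.4 mg/L, and the step of -0.84 (95% interval -1.81 to 0.14) has an upper limit close to 0 and does not exclude a fall back. It kept that class in all 18 alternatives, but was undecided by the step to 2.3 mg/L. These 18 included DESeq2 scaling, no filter, the deposited means, the replicate letter, the lane term and both A libraries left out. The rest each left out 1 library of the control, 1.5 or 3.4 mg/L group. The 2-fold bound, the step to 2.3 mg/L and the fit within lane 4 were not among the 18. The 3 measured cholesterol genes were also classed as full: squalene monooxygenase-like had a step of -0.39 (-0.87 to 0.10), diphosphomevalonate decarboxylase-like of -0.20 (-0.60 to 0.20) and squalene synthase-like of -0.40 (-1.07 to 0.27). Squalene monooxygenase-like and squalene synthase-like were undecided by the step to 2.3 mg/L, and squalene synthase-like was called in only 12 of the 18 alternatives. Of the 6 measured suppliers of NADPH, the 2 called at 1.5 mg/L belonged to the full class. Their steps were 0.21 (upper limit 0.42) for isocitrate dehydrogenase and 0.06 (-0.12 to 0.23) for malic enzyme. At 3.4 mg/L, 3 of the 6 were called higher than control. UDP-glucuronosyltransferase 1-1-like was also full, at 0.10 (-0.15 to 0.36). So were the muscle sodium channel type 4 alpha subunit at 0.12 (-0.19 to 0.44) and the kidney salt transporter solute carrier family 12 member 1 at 0.21 (-0.15 to 0.57).

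Fth1, aldose reductase-like and prostaglandin reductase 1 were full by the rule, with steps of 0.24 (0.08 to 0.40), 0.24 (0.09 to 0.40) and 0.23 (0.07 to 0.38), whose intervals lie above 0 but which did not pass after adjustment (adjusted p = 0.0706, 0.0702 and 0.0877 in edgeR). Cytochrome P450 family 8 subfamily B member 1, with a step of -0.44 (-0.71 to -0.17), lay at the border of receding (adjusted p = 0.0527 in edgeR) and was classed so in 5 of the 18 alternatives. Falls at full size included DDX58 (-0.20, -0.50 to 0.10), NF-kappa-B inhibitor alpha (-0.09, -0.25 to 0.06), matrix metalloproteinase 14 (0.11, -0.01 to 0.23) and Ndufa13 (-0.10, -0.25 to 0.06), where a positive step is a move back toward the control. Complement factor B and inducible nitric oxide synthase, with steps of 0.11 (-0.70 to 0.92) and -0.23 (-0.85 to 0.39), had intervals too wide to place them.

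Of the 7 antioxidant list members that rose, 3 grew (AIFM2-like, KEAP1 and the cystine/glutamate transporter), 2 were full (Fth1 and aldose reductase-like) and 2 undecided (MafG and carbonyl reductase). Among transcripts outside that list, pirin went on from a mean of 533 CPM at 1.5 mg/L to 928 at 2.3 and 1815 at 3.4 mg/L, a step of 1.77 (1.33 to 2.21, adjusted p = 0.000371 in edgeR). The cystine/glutamate transporter had a step of 1.68 (1.22 to 2.13), multidrug resistance protein 1-like of 1.52 (1.10 to 1.95), the nmrA-like transcript of 1.19 (0.83 to 1.56) and KEAP1 of 1.01 (0.53 to 1.48), classed as grown in 14 of the 18 alternatives. The AIFM2-like transcript, with its large first rise, added 0.79 (0.54 to 1.04). Of the drug-metabolising enzymes, cytochrome P450 4B1-like added 0.89 (0.64 to 1.14) and cytochrome P450 3A29-like 0.50 (0.29 to 0.70). Thiopurine S-methyltransferase added 1.13 (0.74 to 1.51) and glutathione S-transferase alpha 1 0.78 (0.50 to 1.06). The widest step was that of hsp70, 2.35 (1.46 to 3.23, adjusted p = 0.00403 in edgeR), from a mean of 33.8 to 172 CPM. All 3 proteasome subunits grew, by 0.39 to 0.47, and NADP-dependent alcohol dehydrogenase-like by 1.20 (0.71 to 1.69). Among the falls, the surfactant protein D-like lectin had a further step of -1.56 (-2.42 to -0.69), to 70.6 CPM, which kept this class in 9 of the 18 alternatives and was undecided in 8.

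A further group was closer to the control at 3.4 than at 1.5 mg/L. Amiloride-sensitive amine oxidase-like, which oxidises histamine and other diamines in mammals, stood at 171, 145, 174 and 163 CPM in controls and at 329, 281, 355 and 326 CPM at 1.5 mg/L (0.99 ± 0.17, adjusted p = 0.00512 in edgeR), then at means of 244 and 177 CPM at 2.3 and 3.4 mg/L. Its step back was -0.87 (-1.23 to -0.50, adjusted p = 0.00801 in edgeR), and at 3.4 mg/L it no longer differed from control by the test (adjusted p = 0.805 in edgeR). Fibrinogen beta chain-like went from 1416, 1812, 2179 and 1665 CPM to 2884, 2957, 2632 and 2509 CPM and returned to a mean of 1690 CPM at 3.4 mg/L (step -0.70, -0.99 to -0.41); it was called and receded in 10 of the 18 alternatives and not called in the others. The bile salt export pump-like transcript returned from a mean of 199 to 100 CPM (step -0.99, -1.55 to -0.42), a class it kept in 11 of 18 alternatives. Glutamine synthetase, which fixes ammonia, went from 72.0, 78.2, 59.7 and 95.6 CPM in controls down to 46.8, 50.6, 45.7 and 48.2 CPM (-0.68 ± 0.12, adjusted p = 0.00733 in edgeR) and was back at a mean of 72.3 CPM at 3.4 mg/L. ADM2-like went from a mean of 35.9 to 64.1 CPM (step 0.83, 0.34 to 1.33), and was classed as receded in 8 of the 18 alternatives and as full in 10.

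**Figure D4:**
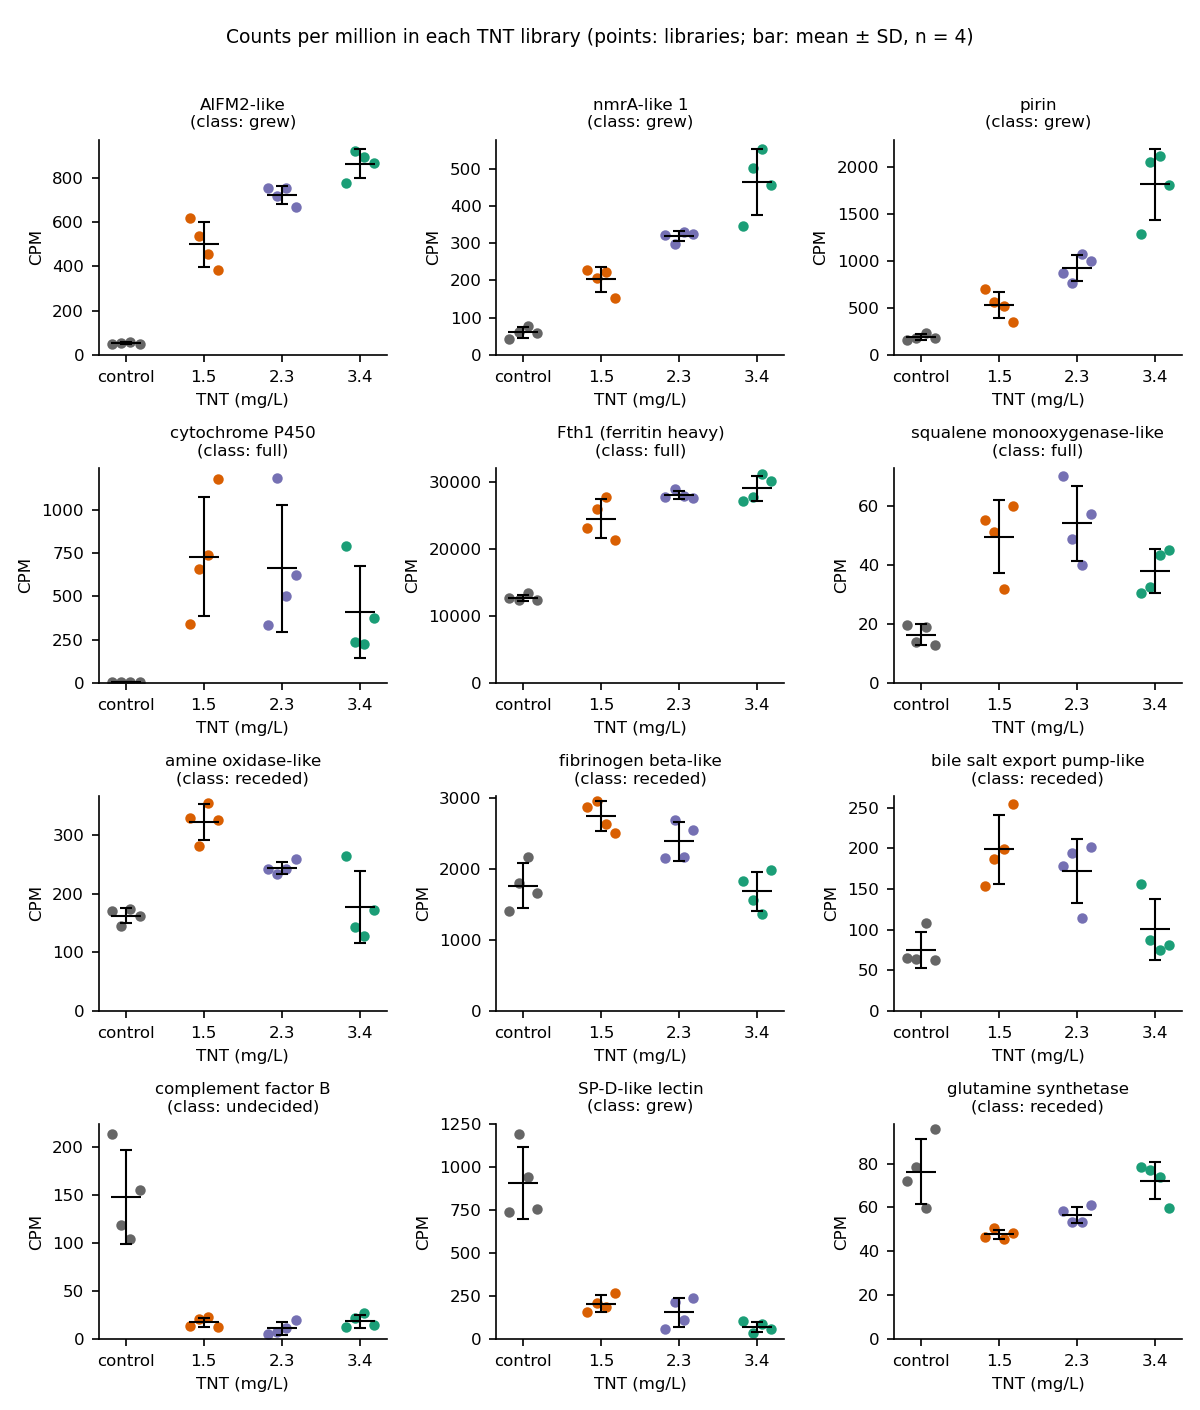
Levels in CPM in each of the 16 TNT libraries for 12 transcripts (points are libraries, the bar is the mean ± SD of 4), with a linear vertical axis from 0 in each panel. The upper rows show transcripts that kept rising (AIFM2-like, nmrA-like, pirin) or were classed as full by the rule (cytochrome P450, Fth1, squalene monooxygenase-like). Fth1 had a further step upward of 0.24, whose interval lay above 0 but which did not pass after adjustment. The lower rows show transcripts that went back toward the control (amine oxidase-like, fibrinogen beta-like, bile salt export pump-like, glutamine synthetase). Also there are complement factor B, which stayed low, and the surfactant protein D-like lectin, which had a further step down and was classed as grown.

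Some of the changes seen at 3.4 mg/L had not passed at 1.5 mg/L; the genes given here had the smallest p among the uncalled members of their lists or were picked after their values were seen. Transthyretin, the thyroid hormone carrier of tadpole plasma, stood at 470, 601, 624 and 497 CPM in controls and at 235, 425, 386 and 358 CPM at 1.5 mg/L, lower in all 4 libraries but short of the threshold (-0.64 ± 0.19, adjusted p = 0.117 in edgeR), and at a mean of 115 CPM at 3.4 mg/L (-2.25, adjusted p = 5.36e-06 in edgeR). Interferon regulatory factor 1, a transcription factor of the interferon response, was near the threshold (-0.53 ± 0.14, adjusted p = 0.0583 in edgeR) and at -1.35 at 3.4 mg/L. The immunoproteasome subunit psmb8 had -0.95 ± 0.26 (adjusted p = 0.0801 in edgeR) and then -1.87. Fetuin-B and Ambp, plasma proteins made in liver, had positive values of 0.42 ± 0.19 and 0.36 ± 0.11 at 1.5 mg/L (adjusted p = 0.344 and 0.104 in edgeR) and fell at 3.4 mg/L by 1.38 and 0.70. Their steps, -1.80 and -1.06, passed (adjusted p = 0.00035 and 0.000282 in edgeR). Collagen type IX alpha 1, a cartilage collagen, had -0.47 ± 0.15 (adjusted p = 0.133 in edgeR) and -1.11 at 3.4 mg/L; summed cartilage markers were 1507 to 1957 CPM in controls and 1257 to 1403 CPM at 1.5 mg/L, without overlap.

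The 349 transcripts were then looked up in the other exposures of the series, each against its own control, at the highest dose sequenced. Under IMX-101 at 40 mg/L, a munition mixture, 29.3% of the 345 tested there were called in the same direction. Another 7.83% (27 transcripts) were called in the opposite direction. Of all transcripts, 7.51% were called there in either direction. The shares of all transcripts called in this paragraph count both directions together, so they are not a like base for 1 direction alone. The 40 mg/L libraries came from 1 sequencing run and their controls from 2, so run set and exposure cannot be told apart there; at 10 mg/L, sequenced like its control, the counts were 30 and 5 (0.989% of all called). Under nitroguanidine (NQ, 3750 mg/L) they were 34 and 14 of 345 (4.48% of all called), and under methylnitroguanidine (MeNQ, 4225 mg/L) 3 and 2 of 346 (0.393% of all called). In joint models the TNT change differed from the IMX-101 change for 159 of the 349 (45.6%, beside 4.57% of all tested), from the NQ change for 131 (37.5%, beside 3.25%) and from the MeNQ change for 102 (29.2%, beside 1.37%). The 349 were chosen on the same TNT values that enter these differences, so these shares are a description; for transcripts called in opposite directions a difference that passes adds little to the calls themselves.

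Shared rises with IMX-101 at 40 mg/L included the cytochrome P450 (4.16 ± 0.46), AIFM2-like (2.09 ± 0.18), multidrug resistance protein 1-like (2.64 ± 0.21), the cystine/glutamate transporter (2.43 ± 0.20), pirin (1.67 ± 0.12) and Fth1 (0.88 ± 0.08). Haemoglobin subunit alpha-3 went the other way there: it fell by 1.68 on the log2 scale under IMX-101, from 7270 to 10400 CPM in that control to 1677 to 3725 CPM, and the TNT and IMX-101 changes differed by 3.00 ± 0.38 (adjusted p = 1.69e-05 in edgeR). ADM2-like rose by 1.18 under IMX-101, a difference of -2.50 ± 0.33 (adjusted p = 3.53e-05 in edgeR). The nmrA-like transcript fell by 1.15 under NQ, a difference of 2.89 ± 0.27 (adjusted p = 8.52e-08 in edgeR). Argininosuccinate synthase, of the urea cycle, fell by 0.99 at 1.5 mg/L TNT (SE 0.14, adjusted p = 0.000963 in edgeR) and rose under NQ by 0.60 and under MeNQ by 0.92.

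Because the control is shared by all TNT doses, its level was set beside the 12 control libraries of the other experiments, with all libraries scaled together. Of the 349 transcripts, 30.1% (beside 10.2% of all tested) had a TNT control mean outside the range of those 12 libraries and an exposed mean inside it, and 23.2% (beside 7.97%) had a control mean inside and an exposed mean outside. In 35.5% both means were outside (beside 21.9% of all tested) and in 11.2% both inside (beside 60%). The exposed mean lay beyond all 12 other controls in the direction of the change for 118 of the 349 (33.8%, beside 17.1% of all tested). The 349 were chosen on the same TNT values, so larger shares than over all tested follow in part from the choice. The experiments also differ in date, cohort or run in ways the labels do not give in full, so these positions are a description.

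Several rises ended above the range of the other controls, from different starting positions. The cytochrome P450 and AIFM2-like started below that range. The cytochrome P450 had a TNT control mean of 5.62 CPM and an exposed mean of 727 CPM beside 11.5 to 58.6 CPM in other controls. AIFM2-like had 54.7 and 497 CPM beside 68.01 to 129.6 CPM. Fth1 was already above the range in the TNT control, with 12880 and 24490 CPM beside 6907 to 12230 CPM. KEAP1, MafG, hsp70, pirin and cytochrome P450 4B1-like moved from inside that range to above it. Others moved into it: haemoglobin subunit alpha-3 went from 3188 to 7649 CPM beside 6819 to 13740 CPM in other controls. The 3 cholesterol genes, cytochrome P450 family 8 subfamily B member 1, multidrug resistance protein 1-like, the nmrA-like transcript, isocitrate dehydrogenase, malic enzyme and integrin alpha-5-like likewise started below the other controls and ended within their range. Some rises started and ended below all the other controls. UDP-glucuronosyltransferase 1-1-like went from 29.1 to 61.0 CPM beside 79.5 to 161 CPM in other controls. The bile salt export pump-like transcript went from 75.9 to 198 CPM beside 265.6 to 856.1 CPM. Fibrinogen beta chain-like and the 3 called proteasome subunits also stayed below. Among the falls, inducible nitric oxide synthase and argininosuccinate synthase went from inside the range of the other controls to below it. Complement factor B started above the other controls (149.5 CPM beside 32.2 to 102) and ended below them at 17.3 CPM, and ADM2-like, DDX58 and olfactomedin 4 started above and ended within.

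**Figure D5:**
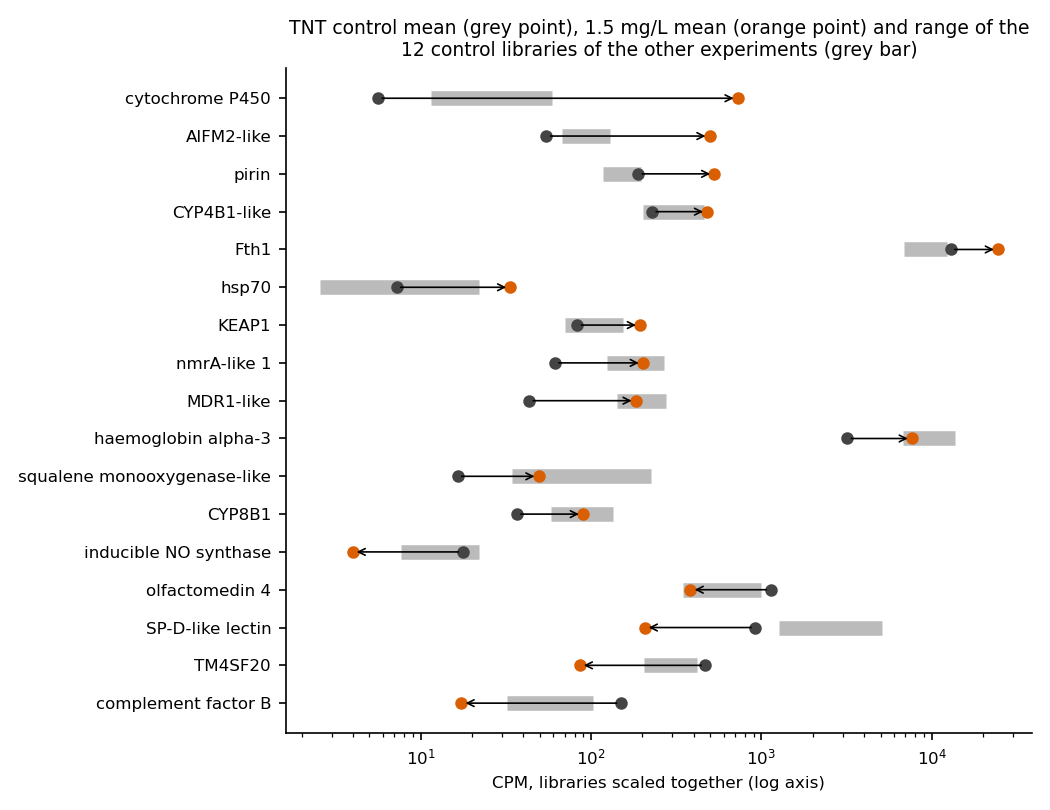
For 17 transcripts, the TNT control mean (grey point) and the 1.5 mg/L mean (orange point, at the arrow's head) are set on a log axis of CPM beside the range of the 12 control libraries of the other experiments (grey bar). The arrows of the cytochrome P450 and AIFM2-like start below the bar and end above it, and that of Fth1 starts and ends above it. Those of haemoglobin alpha-3, squalene monooxygenase-like and CYP8B1 start below the bar and end within it. That of inducible nitric oxide synthase ends below the bar.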

How the data were processed

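RNA of whole tadpoles was sequenced as poly-A libraries with a stranded kit, per the labels' protocols. Per the submitters' processing notes, the authors used bcl2fastq 1.8.4 to split reads and Salmon for the estimated counts of each transcript that they deposited. The Salmon version and reference transcriptome were not given in the sources used here. Runs of a library were summed and rounded here. The 16 TNT libraries entered 1 edgeR 4.0.16 model (R 4.3.3; filterByExpr, TMM, quasi-likelihood F test, Benjamini-Hochberg 0.05) with 1 mean per group. Depth ran from 1.67 to 14 M counts. Alternatives were DESeq2 1.42.0 scaling and test, no filter, a 2-fold minimum, the 8 libraries alone, sums by name, the deposited means, the replicate letter, and each library left out; lane settings, both A libraries left out, IMX-101 at 10 mg/L, other controls and difference tests were added after seeing the data. Members and lists were chosen with earlier results of these data known. Named genes were the 12 largest rises and falls, the 8 smallest adjusted p, the 8 largest changes of each class (informative name, mean of at least 1 CPM, groups apart), and called or smallest-p list members (up to 4). The test was checked on simulated data. Nothing in the labels pairs beakers between groups, and no sequences are given.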

Additional observations from a re-analysis of the deposited data

Results flagged for a closer look

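In 13 of 132 groups of 4 tested, 1 library stood apart, its gap to the nearest of the others, over the range, exceeding Dixon's critical value at 95%; chance gives about 1 in 20 groups. Among controls this was library B for adult alpha globin (ratio 1) and myosin-4-like (0.886), D for apoptosis-inducing factor 2 (1), A for NADP-dependent alcohol dehydrogenase-like (0.972) and glutathione S-transferase alpha 1 (0.869), and C for the bile salt export pump-like transcript (0.929). Among exposed libraries it was C for glutaredoxin-1-like (0.903), malic enzyme (0.906) and cytochrome P450 4B1-like (0.88), A for KEAP1 (0.855) and proteasome subunit alpha type 1 (0.903), and D for catalase-like (0.928). Glutaredoxin-1-like, a disulfide reductase, was at 40.4 CPM in C against 8.19 to 11.3 CPM in the other exposed libraries and 4.06 to 5.64 CPM in controls; its change of 1.87 was 1.02 without C, and its call was lost without any 1 of the 4 controls, with values of at most 1.96. Exposed library A was also the shallowest of its group, with 4.29 M counts against 13.28 to 13.99 M (ratio 0.927).

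Changes called in opposite directions under TNT and IMX-101 at 40 mg/L are given as the TNT minus the IMX-101 change. The difference was -2.50 for ADM2-like, -1.63 for the zinc transporter ZIP4-like, -1.57 for glutamine synthetase, -1.21 for sorting nexin-29-like, -0.95 for NF-kappa-B inhibitor alpha and complement factor H-like (-0.95), and -0.70 for galectin-4-like. It was 0.80 for plexin-B1-like, 1.12 for the chromatin regulator SWI/SNF member 5, 1.30 for cadherin-related family member 3, 1.51 for the insulin-like growth factor-binding complex acid labile subunit and 3.00 for haemoglobin subunit alpha-3. Some of these TNT calls were weak. Of the 18 alternatives, SWI/SNF member 5 was called in 2, cadherin-related family member 3 in 5, and plexin-B1-like and sorting nexin-29-like in 10 each. Complement factor H-like was called in 11 and haemoglobin subunit alpha-3 in 14, and the others were called in all 18.

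Against NQ at 3750 mg/L the difference was -1.58 for argininosuccinate synthase, -0.77 for matrix metalloproteinase 14, 0.61 for COP9 signalosome subunit 6, 0.78 for proteasome maturation protein-like, 0.74 for 26S subunit 6, 1.01 for HN1, 1.16 for proteasome subunit beta type-5-like, 1.30 for Rab-38-like and 2.89 for the nmrA-like transcript. Against MeNQ at 4225 mg/L it was -1.90 for argininosuccinate synthase and 2.37 for solute carrier family 12 member 1. Of the 18 alternatives, the TNT call on COP9 signalosome subunit 6 was made in 1, on proteasome maturation protein-like in 6 and on 26S subunit 6 in 10. Proteasome subunit beta type-5-like was called in 17, and the others in this paragraph in all 18.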

How the results depend on the processing

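Among the 72 transcripts followed by name across these settings, no value reversed. Several transcripts named only for calls in opposite directions were not among them. The 349 calls at 1.5 mg/L became 732 with the DESeq2 Wald test, 149 with only the 8 libraries compared, 122 with a 2-fold minimum, 221 with lane as a term, 13 within lane 4, and 241 to 296 without 1 library; 193 (55.3%) held in all 8 leave-outs of the compared libraries. Same-lettered libraries deviated together by correlations of 0.0022 to 0.0852. These weak values show no pairing by letter, but they cannot exclude a shared block. With the letter as a block 253 were called and 11 receded. Of full, grown and receded changes there were 109, 44 and 20 with the lane term, and 4, 0 and 0 within lane 4, with 9 undecided. Without both A libraries 52 grew. With a 2-fold bound 26 were undecided. With the step from 1.5 to 2.3 mg/L none grew (0) or receded (0) and 94 were undecided. Without 1 library of the control, 1.5 or 3.4 mg/L group, 241 to 330 were called. Of these 122 to 169 were full, 51 to 81 grew, 13 to 29 receded and 40 to 65 were undecided. Grown changes were 51 without exposed C. Receded ones were 22 without control B, 13 without exposed C or D, and 15, 17 and 18 without libraries B, C and D of 3.4 mg/L. Same-direction calls in IMX-101 at 40 mg/L, NQ and MeNQ were 48, 12 and 0 among the 2-fold changes, and 30 in IMX-101 at 10 mg/L. Of 65 named calls 47 held in each leave-out. With only the 8 libraries compared 24 of the 65 were lost, with lane as a term 16, and with the letter as a block 13. The causes were not tested. Low depth of both A libraries limits weakly expressed transcripts.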
